A study of Mus musculus with 9 samples.

Results

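Neurons of the cerebral cortex are born in sequence, deep layers before upper layers, and each class of projection neuron is set by a small network of transcription factors that in part repress each other. Fezf2 and Bcl11b direct deep-layer neurons that send axons below the cortex, Tbr1 and Sox5 direct corticothalamic and subplate neurons, and Cux1, Cux2, Rorb and the POU factors Pou3f2 and Pou3f3 mark upper layers. Many of these genes stay on after the neuron has matured, which is why they serve as identity markers in culture. The set described here is 36 genes of cortical layer and projection neuron identity, listed by symbol: 8 upper-layer genes, 10 deep-layer genes, 8 genes found in several layers, 3 basic helix-loop-helix (bHLH) factors of excitatory neurons, and 7 genes of cortical progenitors and areas. They are read by 52 probes of the array, and 35 of the 36 were among the 14063 genes tested. The exception, Eomes, was well above background on 0 control, 1 bicuculline and 2 KCl arrays.

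Expression was measured on 9 single-colour Agilent arrays of cortical neurons from C57bl/6 mouse embryos (embryonic day 15), all kept for 12 days in culture. Control cultures (3 arrays) were untreated, the bicuculline group (Bic, 3 arrays) had 25 µM of this GABA-A receptor blocker for 6 h, and the KCl group (3 arrays) had 50 mM KCl, which depolarises the membrane, for 6 h. Whether the 3 arrays of a group come from separate cultures, and whether controls had a vehicle, is not stated in the labels. Each p-value therefore measures only how arrays of a group spread, which may be technical. All values below are log2 signal after the array's 75th percentile was subtracted, so 0 is the level of a spot at that percentile. Each is read by a probe of its own, so levels are compared between arrays and not between genes. A gene was called at an adjusted p under 0.05 (limma, Benjamini-Hochberg over all genes tested).

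The series' own controls of treatment and culture were as follows. Fos, an immediate early gene, rose by 2.76 under bicuculline and 4.47 under KCl, and Npas4, induced by calcium entry, by 0.86 and 4.32. Between 65.0% and 75.9% of spots on an array were well above background, 0 were saturated, and the median SD between arrays of a group was 0.064. Markers of other cells were detected beside those of neurons: 6 of 6 neuron, 9 of 10 interneuron, 6 of 6 astrocyte, 5 of 6 oligodendrocyte, 5 of 6 microglia, 3 of 5 vascular and 6 of 6 cycling-cell markers were well above background on every array of all groups. The filter left Pvalb, Mog, Itgam, Pecam1 and Cldn5 out of the test. Their probes still enter the list means below, so the interneuron, oligodendrocyte and microglia means hold signal near background. Mog, well above background on 0 arrays of any group, read -7.87, -8.15 and -8.45 in controls. With KCl it read -7.62, -5.19 and -6.37, so the oligodendrocyte mean moved in part through it. The mean level of the neuron markers lay between 3.45 and 3.49 in controls, 3.41 and 3.45 with bicuculline and 3.53 and 3.59 with KCl. The mean of the astrocyte markers lay between 1.63 and 1.69, 1.43 and 1.47, and 1.71 and 1.90 in the same order. For oligodendrocyte markers these ranges were -0.26 to -0.17, -0.30 to -0.23 and 0.08 to 0.46, and for microglia -2.45 to -2.37, -2.76 to -2.10 and -2.28 to -1.46. Interneuron markers ranged from 0.57 to 0.61, 0.68 to 0.72 and 0.86 to 0.93, with no overlap between groups. Cycling-cell markers ranged from 1.01 to 1.05, 0.75 to 0.81 and 0.65 to 0.70, again without overlap. Neither list moved as one under KCl. Of 9 interneuron markers tested 6 rose and 2 fell, and of 6 cycling-cell markers 2 rose and 4 fell. Of all genes tested, 35.8% rose and 36.0% fell. Among cycling-cell markers Hes5 changed by -2.52, the other falls were from -0.21 to -0.15, and Nes and Pax6 rose by 0.49 and 0.44. The part of these cells in the changes below, those of the progenitor members included, was not tested. In such bulk samples, fewer cells of a type and less RNA per cell cannot be told apart.

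Under bicuculline, 12 of the 35 members tested (34.3%) rose and 10 (28.6%) fell, where 17.4% of all genes tested rose and 27.0% fell. Under KCl, 24 (68.6%) rose and 6 (17.1%) fell, where 35.8% of all genes rose and 36.0% fell. The rises in both comparisons include Sox5 and Ntng2, which entered the test through treated arrays alone, a selection that favours a rise. All genes tested passed the same filter. The median change of the members was -0.02 under bicuculline and 0.22 under KCl, and that of all genes tested -0.03 and 0.02. The members rose in both treatments in 11 cases and fell in both in 5. Another 11 rose under KCl alone at this threshold, and 2, Pou3f1 and Pou3f2, fell under bicuculline and rose under KCl. Only Lmo3, a LIM-only cofactor, passed in neither comparison. Both comparisons use the same 3 control arrays, so shared directions are not independent. No share of all genes is given for these joint counts, so they describe the members alone. The count of rises under KCl depends on how the arrays are scaled: it was 13 with each array set to its median and 8 with each array set to its spike-in probes, which lowered the median KCl change of all genes by 0.16 and 0.23. Of all 14063 genes tested, 2942 and 2201 rose in these settings, against 5037 in the main analysis. Of all genes called under KCl, 49.9% were higher, against 40.2%, 31.8% and 25.9% with quantile, median and spike-in scaling; under bicuculline the share was 39.2%, against 49.8% with spike-in scaling and 58.7% with normexp background correction.

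**Figure D1:**
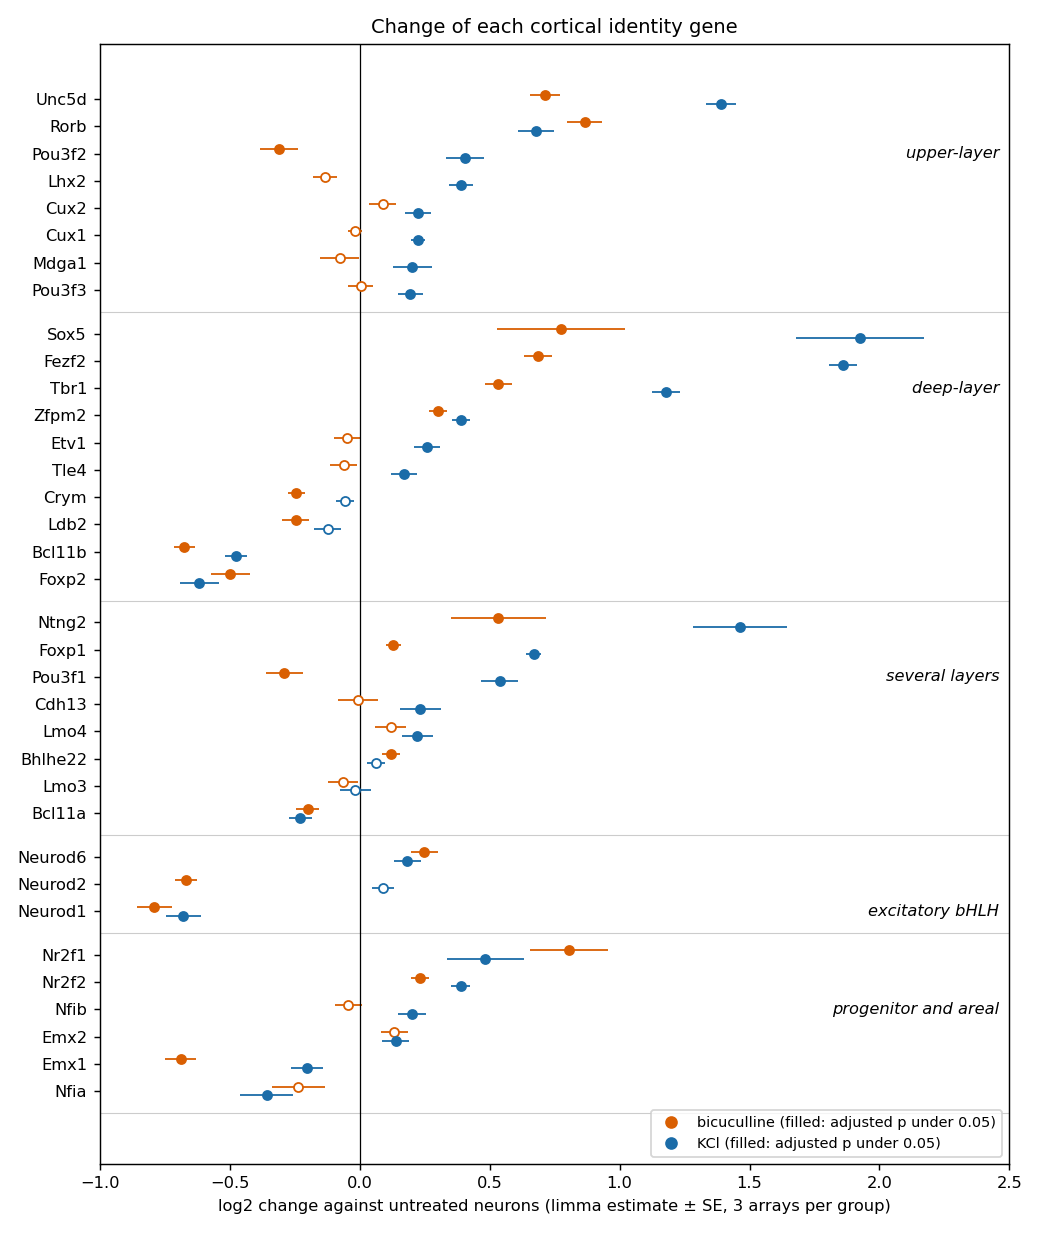
Change of each of the 35 members tested against untreated neurons, in log2 units with limma's standard error (3 arrays per group), for bicuculline (orange) and KCl (blue); filled points passed an adjusted p under 0.05. Fezf2, Sox5, Unc5d and Tbr1 lie between 1.18 and 1.92 under KCl, though Sox5 was well above background on only 2 of 3 control arrays. The point of Ntng2 is no measured size because its control arrays were not well above background. Bcl11b and Emx1 lie left of 0 in both treatments.

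The deep-layer genes went both ways, as all genes tested did. Of 10, 4 rose and 4 fell under bicuculline, where 17.4% and 27.0% of all genes did. Under KCl 6 rose and 2 fell, where 35.8% and 36.0% of all genes did. Both counts of rises include Sox5, which entered the test through the treated arrays alone. Fezf2, the zinc finger factor that specifies subcerebral projection neurons, read 0.18, 0.23 and 0.14 in controls, 0.86, 0.94 and 0.81 with bicuculline and 2.06, 1.95 and 2.12 with KCl. The 3 groups did not overlap, and every KCl array stood above every bicuculline array. Its change was 0.69 ± 0.05 under bicuculline (SE, n = 3 arrays per group, limma adjusted p = 3.2e-05) and 1.86 ± 0.05 under KCl (6.6e-08), which is 1.61-fold and 3.63-fold.

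Because Fezf2 gave the largest rise under KCl among members well above background on all 9 arrays, its promoter is shown. It runs from 250 bases before to 50 after the RefSeq gene start (GRCm38.p6, chr14:12345816-12346115, minus strand). Capitals mark the match to TGANTCA, the core site of the Fos and Jun (AP-1) family.
Fezf2: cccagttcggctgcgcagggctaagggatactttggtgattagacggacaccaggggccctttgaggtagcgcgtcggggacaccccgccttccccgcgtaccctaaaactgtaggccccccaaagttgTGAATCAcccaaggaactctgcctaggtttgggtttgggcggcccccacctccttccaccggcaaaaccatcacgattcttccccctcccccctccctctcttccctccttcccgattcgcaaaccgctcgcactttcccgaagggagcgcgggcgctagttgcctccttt
The members were scanned on both strands for this motif and for TGACGTCA, the full cAMP response element bound by CREB; 27 of the 36 had a promoter in the table. TGANTCA was found in 2 of the 27 (7.41%), Fezf2 and Rorb, and in 8.97% of the 27025 genes with a promoter. TGACGTCA was found in 0 of the 27 and in 2.03% of all genes. The members' share is close to that of all genes, and a match describes the letters alone.

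Tbr1, the T-box factor of corticothalamic neurons that restrains Fezf2 in the developing cortex, read -1.02, -1.16 and -1.09 in controls, -0.56, -0.50 and -0.60 with bicuculline and 0.18, 0.05 and 0.04 with KCl. It rose by 0.53 ± 0.05 (adjusted p = 0.00013) and by 1.18 ± 0.05 (5.2e-07), with no overlap between any of the groups. Thus Tbr1 and Fezf2, which mark different deep-layer classes, were both higher in both treatments. Sox5, a SoxD factor that controls the order in which deep-layer neurons are made, was dim. Its values were -6.57, -5.96 and -5.56 in controls, of which 2 of 3 were well above background, -5.47, -5.20 and -5.09 with bicuculline and -4.34, -4.07 and -3.89 with KCl. It entered the test through the treated arrays alone. That selection favours a rise, so the adjusted p values of Sox5 against control carry little weight. Its rise under KCl was 1.92 ± 0.25 (adjusted p = 0.00018). The rise of 0.78 ± 0.25 under bicuculline (0.034) did not pass without control 1 or 2, without bicuculline 2 or 3, or without KCl 2, with adjusted p up to 0.10, nor without the filter on dim probes. With normexp this rise was only 0.20 and did not pass. It also did not pass in the limma fit of only the 2 groups compared (adjusted p = 0.06).

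Bcl11b, a zinc finger factor needed for corticospinal axon growth and a target of Fezf2, went the other way. It read 1.68, 1.70 and 1.70 in controls, 1.02, 0.98 and 1.06 with bicuculline and 1.30, 1.17 and 1.18 with KCl. Control arrays were the highest and bicuculline arrays the lowest, without overlap. The falls were 0.68 ± 0.04 on the log2 scale under bicuculline (1.60-fold lower, adjusted p = 8.9e-06) and 0.48 ± 0.04 under KCl (1.39-fold lower, 1.8e-05). A probe for another RefSeq transcript of Bcl11b gave -0.79 and -0.88, both passing. Fezf2 and Bcl11b, which act in the same pathway in development, therefore moved in opposite directions at the RNA level after 6 h of either treatment. Foxp2, a forkhead factor of corticothalamic neurons, read -2.43, -2.36 and -2.33 in controls, -2.74, -3.00 and -2.87 with bicuculline and -2.90, -3.09 and -2.98 with KCl. Both treated groups lay below the controls and overlapped each other. Its changes were -0.50 ± 0.08 (adjusted p = 0.0011) and -0.62 ± 0.08 (0.00013), but with normexp background correction of the raw signal the KCl value was 0.09 and neither passed. A dim second probe, dropped by the filter, gave 0.07 and 0.38.

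The other deep-layer members changed less. Zfpm2, a cofactor of GATA proteins found in corticothalamic neurons, rose by 0.30 under bicuculline and 0.39 under KCl. With spike-in scaling neither passed (0.30 and 0.16), and with normexp the bicuculline value of 0.27 did not pass. Ldb2, a LIM-domain binding cofactor, and Crym, a thyroid hormone binding protein of corticospinal neurons, each fell under bicuculline, with values of -0.25 and -0.24, and did not pass under KCl (-0.12 and -0.06). With quantile, median and spike-in scaling both passed as lower under KCl too, from -0.13 to -0.35 for Ldb2 (adjusted p up to 0.049) and from -0.14 to -0.28 for Crym (up to 0.022). Etv1, an ETS factor, and the Groucho corepressor Tle4 rose under KCl by 0.26 and 0.17 and did not pass under bicuculline (-0.05 and -0.06); Tle4 stood at -0.06 under KCl with spike-in scaling and at -0.02 with normexp.

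Upper-layer genes had a median change of -0.01 under bicuculline, with 2 of 8 higher and 1 lower. The 2 higher were Rorb (0.87), the largest rise of any member there, and Unc5d (0.71). Of all genes tested, 17.4% were higher and 27.0% lower there. Under KCl all 8 rose, with a median of 0.31, where 35.8% of all genes rose. With spike-in scaling, however, only Unc5d and Rorb passed, and Cux1, Cux2, Pou3f3 and Mdga1 stood at or just below 0. Unc5d, a netrin receptor of newborn upper-layer neurons, read -4.51, -4.58 and -4.42 in controls, -3.86, -3.78 and -3.74 with bicuculline and -3.15, -3.03 and -3.17 with KCl. The groups were fully apart in that order. The rise was 0.71 ± 0.06 (adjusted p = 4.1e-05) and 1.39 ± 0.06 (3.4e-07), and a dimmer second probe gave 0.60 and 1.12. With normexp the bicuculline value of Unc5d was 0.42 and did not pass (adjusted p = 0.86).

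Rorb, the orphan nuclear receptor of the thalamus-receiving layer, read -2.49, -2.27 and -2.42 in controls, -1.47, -1.58 and -1.53 with bicuculline and -1.63, -1.70 and -1.81 with KCl. Both treated groups lay above the controls. The rise was 0.87 ± 0.07 under bicuculline (adjusted p = 3.3e-05) and 0.68 ± 0.07 under KCl (4.3e-05). With normexp the bicuculline value was 0.75 and did not pass (adjusted p = 0.17). A second probe of the same RefSeq transcript read -3.47, -3.44 and -3.45 in controls, -1.70, -1.69 and -1.68 with bicuculline and -1.73, -1.70 and -1.76 with KCl. By this probe the rise was 1.77 ± 0.03 and 1.73 ± 0.03, about the same in both treatments and larger than by the brighter probe. Rorb was the other member with TGANTCA in a promoter, the match lying near the 5′ end of 1 of its 2 promoters in the table (GRCm38.p6, chr19:19001068-19001367, minus strand), shown with the match in capitals.
Rorb: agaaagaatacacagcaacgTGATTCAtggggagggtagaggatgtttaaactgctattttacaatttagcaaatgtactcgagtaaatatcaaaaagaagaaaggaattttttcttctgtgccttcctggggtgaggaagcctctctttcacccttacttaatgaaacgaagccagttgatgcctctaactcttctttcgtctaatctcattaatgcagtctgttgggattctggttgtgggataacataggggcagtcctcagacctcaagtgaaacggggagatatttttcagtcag

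Pou3f2, a POU factor of upper-layer neurons and their progenitors, read -2.27, -2.23 and -2.19 in controls, -2.60, -2.59 and -2.43 with bicuculline and -1.88, -1.67 and -1.92 with KCl. The bicuculline arrays lay below the controls and the KCl arrays above them. Its changes were -0.31 ± 0.07 (adjusted p = 0.010) and 0.41 ± 0.07 (0.0013). With spike-in scaling neither passed (-0.31 and 0.18). Pou3f1, a related POU factor found in several layers, had the same order, with 2.28, 2.41 and 2.17 in controls, 2.04, 2.06 and 1.91 with bicuculline and 2.79, 2.92 and 2.78 with KCl. Its changes were -0.29 ± 0.07 (adjusted p = 0.012) and 0.54 ± 0.07 (0.00023). The bicuculline call of both genes was lost with spike-in scaling and with normexp, and with normexp the KCl value of Pou3f1 was 0.30 and did not pass (adjusted p = 0.21). Pou3f3, the paralogue of Pou3f2, depended on the probe. The brighter probe read -0.71, -0.77 and -0.73 in controls, -0.74, -0.73 and -0.73 with bicuculline and -0.51, -0.47 and -0.65 with KCl, a change of 0.00 and 0.19. The other read -0.97, -0.83 and -0.92 in controls, -1.19, -0.92 and -1.09 with bicuculline and -0.37, -0.31 and -0.42 with KCl, a change of -0.16, which did not pass, and 0.54, which did. By the second probe Pou3f3 thus had the signs of Pou3f1 and Pou3f2, with bicuculline arrays that overlapped the controls.

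The remaining upper-layer genes moved little. Lhx2, a LIM homeodomain factor of cortical progenitors and upper layers, rose by 0.39 under KCl and did not pass under bicuculline (-0.13, adjusted p = 0.051). Cux2, a homeodomain factor of upper-layer dendrites, and Mdga1, a membrane-anchored adhesion protein, rose by 0.23 and 0.20 under KCl. The call for Mdga1 was lost without control 1 or 2, bicuculline 1, or KCl 1 or 2. Cux1, the paralogue of Cux2, read 2.51, 2.48 and 2.49 in controls, 2.48, 2.47 and 2.49 with bicuculline and 2.73, 2.69 and 2.74 with KCl. Its KCl arrays were all higher, by 0.22 ± 0.03, and its bicuculline arrays overlapped the controls; its 3 probes pointed both ways under bicuculline, at -0.02, -0.06 and 0.03, none passing.

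**Figure D2:**
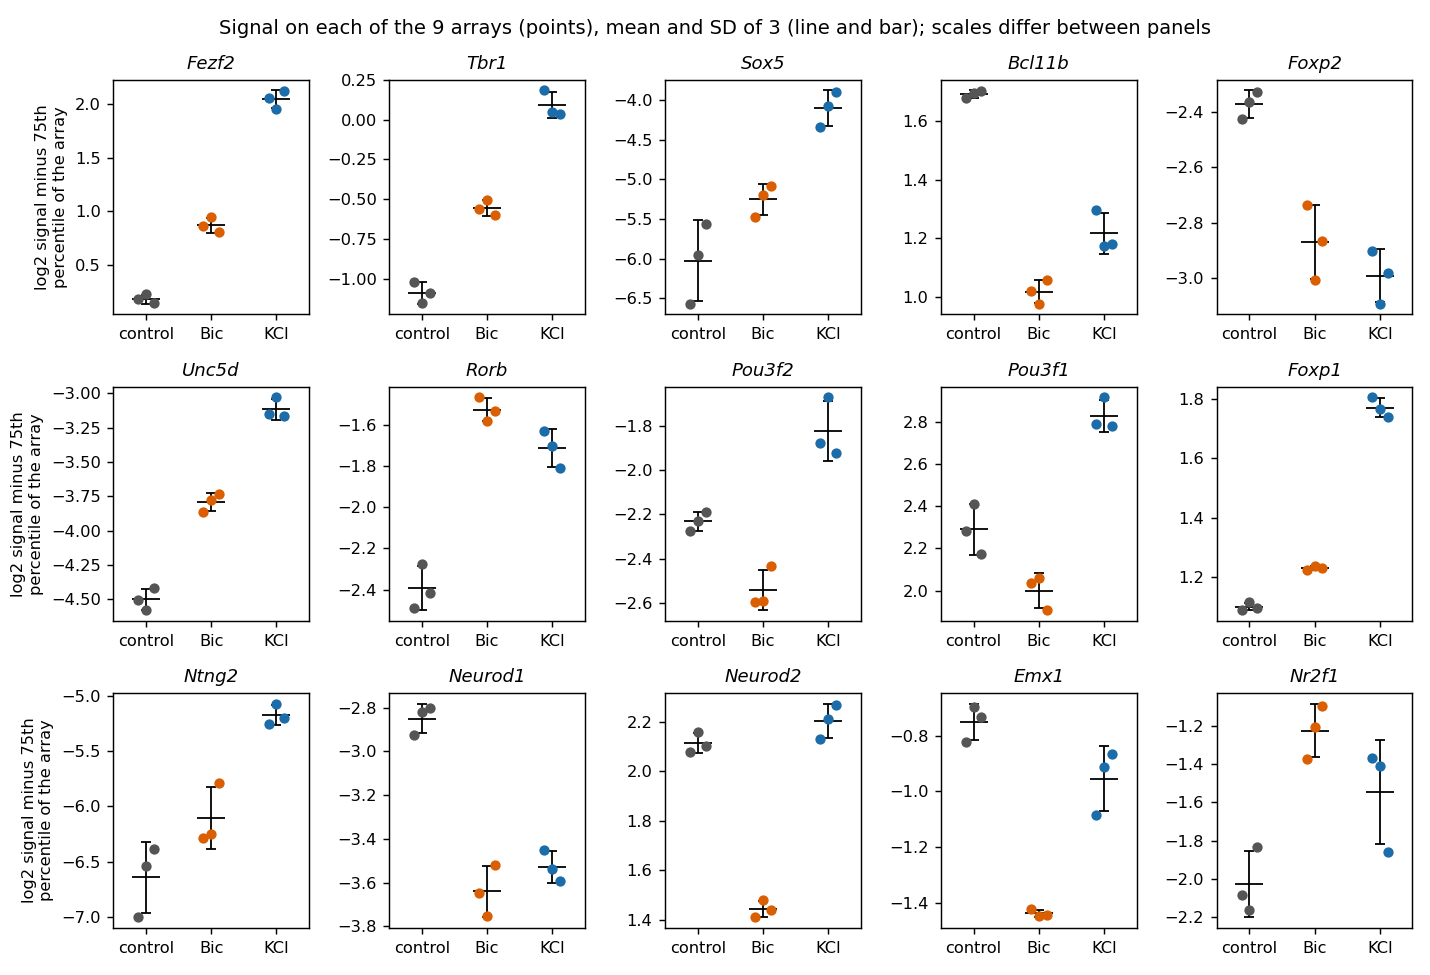
Log2 signal minus the array's 75th percentile for 15 members on each of the 9 arrays (points), with mean and SD of the 3 arrays of a group; the scale differs between panels. Fezf2, Tbr1, Sox5 and Unc5d step up from control to bicuculline to KCl, Bcl11b and Emx1 fall in both treatments, and Pou3f1 and Pou3f2 fall with bicuculline and rise with KCl.

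Among genes of several layers, 3 of 8 rose and 2 fell under bicuculline, beside 17.4% and 27.0% of all genes tested. Under KCl 5 rose and 1 fell, beside 35.8% and 36.0% of all genes. Foxp1, a forkhead factor of pyramidal neurons, read 1.092, 1.116 and 1.097 in controls, 1.225, 1.237 and 1.232 with bicuculline and 1.805, 1.766 and 1.740 with KCl. The arrays of each group lay close together, so that its small change of 0.13 ± 0.03 under bicuculline passed (adjusted p = 0.0060), beside 0.67 ± 0.03 under KCl (3.2e-07). With the median or spike-in scaling the bicuculline change did not pass. Ntng2, netrin-G2, an axonal surface protein of cortical neurons, was well above background on 0 control, 1 bicuculline and 3 KCl arrays. It read -7.00, -6.54 and -6.38 in controls, -6.28, -6.25 and -5.79 with bicuculline and -5.25, -5.08 and -5.20 with KCl. Against the lowest signal well above background on each control array, or its own value if higher, it was at least 1.89-fold higher under KCl. Ntng2 entered the test through the KCl arrays alone and so had to differ, which leaves its adjusted p of 0.00015 without weight. The bound rests on the same KCl arrays and adds no support. With normexp the KCl value was 1.57 and did not pass (adjusted p = 0.12). Under bicuculline Ntng2 gave no bound above 1. The bicuculline call (adjusted p = 0.045) was lost on leaving out any single array other than control 3, with changes from 0.35 to 0.66.

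Bcl11a, a partner and relative of Bcl11b, fell by 0.20 under bicuculline and by 0.23 under KCl on the log2 scale. A second probe gave -0.14, which did not pass, and -0.39, which did. The bicuculline call of Bcl11a was lost with spike-in scaling and with normexp, and the KCl call with normexp (-0.43, adjusted p = 0.067). Lmo4, a LIM-only cofactor of callosal and corticospinal neurons, rose by 0.22 under KCl, as did the T-cadherin gene Cdh13 by 0.23; both lost the call with quantile, median and spike-in scaling, where Lmo4 was 0.02, 0.06 and just below 0 (-0.03 with normexp) and Cdh13 was -0.03, 0.07 and 0.01. Lmo3 changed by -0.06 and -0.02. Bhlhe22, a bHLH repressor of area and layer identity, gave opposite signs by its probes, which carry the same RefSeq identifier. The brighter probe read 2.60, 2.55 and 2.53 in controls, 2.65, 2.73 and 2.67 with bicuculline and 2.61, 2.60 and 2.66 with KCl, and its bicuculline value of 0.12 passed in the main analysis. That call was lost in 5 of 10 other settings, and without control 2 or 3 or bicuculline 2 or 3 (adjusted p up to 0.080). The other probe read 2.45, 2.38 and 2.21 in controls, 2.26, 2.40 and 2.18 with bicuculline and 1.87, 1.92 and 1.71 with KCl. By that probe every KCl array was below every control, with a change of -0.51 ± 0.09 (adjusted p = 0.00089 in the fit of all kept probes). The direction of Bhlhe22 under KCl is therefore not settled by these arrays.

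**Figure D3:**
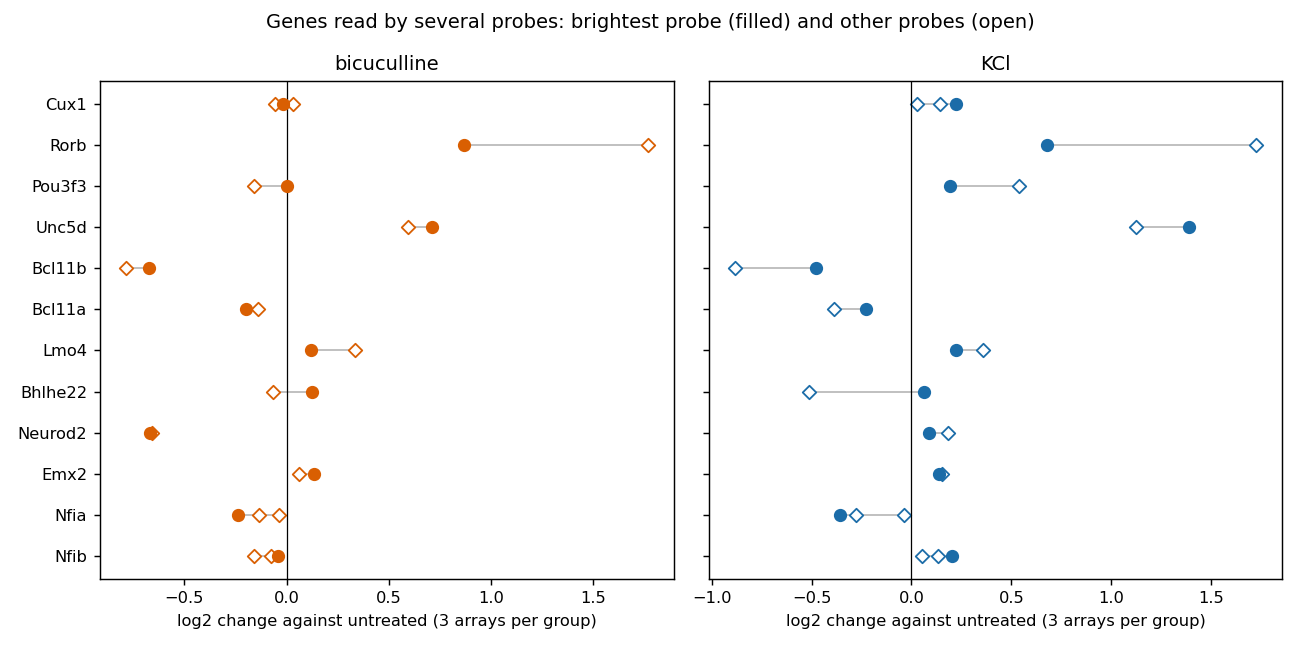
Log2 change against untreated neurons for the 12 members with over 1 kept probe, by the brightest probe (filled) and the others (open), under bicuculline and KCl (3 arrays per group). The probes of Rorb differ most in size, at 0.87 and 1.77 under bicuculline, and those of Bhlhe22 differ in sign under KCl, at 0.06 and -0.51.

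The NeuroD factors, bHLH activators that drive and maintain excitatory differentiation, did not move as a group. Neurod2, which is itself needed for activity-dependent synapse maturation, read 2.08, 2.16 and 2.10 in controls, 1.41, 1.48 and 1.44 with bicuculline and 2.13, 2.21 and 2.27 with KCl. The bicuculline arrays alone were low. The change was -0.67 ± 0.04 under bicuculline (1.59-fold lower, adjusted p = 1.1e-05), and the value of 0.09 ± 0.04 under KCl did not pass (0.090). With normexp the bicuculline value was -0.64 and just missed the threshold (adjusted p = 0.051). A second, dimmer probe gave -0.66 and 0.18. Neurod1 read -2.93, -2.82 and -2.80 in controls, -3.65, -3.75 and -3.52 with bicuculline and -3.45, -3.54 and -3.59 with KCl. Both treated groups were below the controls and overlapped. The changes of -0.79 ± 0.07 (adjusted p = 5.4e-05) and -0.68 ± 0.07 (4.2e-05) held under quantile, median and spike-in scaling, while with normexp neither passed and the KCl value was 0.17. Neurod6, a marker of mature pyramidal neurons, rose by 0.25 and 0.18, though under KCl it stood at -0.04 with spike-in scaling.

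Of the 6 progenitor and areal genes tested, 2 rose and 1 fell under bicuculline, beside 17.4% and 27.0% of all genes tested. Under KCl 4 rose and 2 fell, beside 35.8% and 36.0% of all genes. Emx1, the homeobox gene of the dorsal telencephalon from which excitatory neurons arise, read -0.82, -0.70 and -0.73 in controls, -1.42, -1.45 and -1.45 with bicuculline and -1.08, -0.91 and -0.86 with KCl. Every treated array was below every control, and the bicuculline arrays were the lowest. Its change was -0.69 ± 0.06 (adjusted p = 6.0e-05) and -0.20 ± 0.06 (0.016), the second lost without control 2 (-0.14, adjusted p = 0.055). With normexp the KCl value was -0.04 and did not pass (adjusted p = 0.82), and with median and spike-in scaling it was -0.36 and -0.43. Emx2, its paralogue, rose by 0.14 under KCl, where its value was -0.02 with median and -0.09 with spike-in scaling, and did not pass under bicuculline (0.13).

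Nr2f1 (COUP-TFI), a nuclear receptor that sets sensory area identity, read -2.08, -2.17 and -1.83 in controls, -1.37, -1.20 and -1.09 with bicuculline and -1.36, -1.41 and -1.86 with KCl. The bicuculline arrays were above all controls, while KCl 3 lay within the control range. Its rise was 0.80 ± 0.15 under bicuculline (adjusted p = 0.0031) and 0.48 ± 0.15 under KCl (0.019), the latter lost without control 1 or 2 or without KCl 1 or 2, with adjusted p up to 0.066. With normexp neither rise of Nr2f1 passed (0.78 and 0.64). Nr2f2 (COUP-TFII), its relative, rose by 0.23 and 0.39. Neither passed with spike-in scaling (0.23 and 0.16) or with normexp (0.24 and 0.25). The nuclear factor I genes, which act in deep-layer neurons and in gliogenesis, had opposite signs under KCl. Nfia fell by 0.36 on the log2 scale, and its other probes gave -0.28, which passed, and -0.04, which did not; Nfib rose by 0.20 and stood at -0.02 with spike-in scaling and -0.01 with normexp.

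KCl was also set against bicuculline directly, which asks whether the treatments differ. Of the 35 members, 22 (62.9%) were higher with KCl and 1 (2.86%) lower, where 36.1% of all genes tested were higher and 28.8% lower. The 22 include Ntng2, which entered the test through the KCl arrays alone. Of all genes called here, 55.6% were higher with KCl, against 43.0%, 33.9% and 19.7% with quantile, median and spike-in scaling and 45.2% with normexp. The median difference was 0.20 for the members and 0.07 for all genes. Fezf2 (1.17 ± 0.05, adjusted p = 1.6e-06), Sox5 (1.15 ± 0.25, 0.0040), Pou3f1 (0.83 ± 0.07, 3.2e-05), Neurod2 (0.76 ± 0.04, 3.9e-06), Pou3f2 (0.72 ± 0.07, 7.7e-05), Unc5d (0.68 ± 0.06, 3.0e-05), Tbr1 (0.65 ± 0.05, 2.5e-05), Foxp1 (0.54 ± 0.03, 2.5e-06) and Lhx2 (0.52 ± 0.05, 3.8e-05) were higher with KCl on all 3 arrays. With slide as a block the difference of Sox5 was 0.73 and did not pass (adjusted p = 0.055). Thus the members with the largest difference include genes that rose in both treatments and genes that fell with bicuculline alone. The difference of Fezf2, Foxp1, Neurod2, Pou3f1, Pou3f2 and Tbr1 passed in each of the 10 other settings and without each array in turn. Rorb was the member lower with KCl (-0.19 ± 0.07, adjusted p = 0.040). That call was lost without control 3, bicuculline 1, bicuculline 3, KCl 2 or KCl 3, and its other probe gave -0.04, which did not pass.

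Upper-layer and deep-layer genes were compared by their counts and medians. The median change was -0.01 for upper-layer and -0.05 for deep-layer genes under bicuculline, and 0.31 and 0.21 under KCl, beside -0.03 and 0.02 for all genes tested. The medians lay 0.05 apart under bicuculline and 0.09 apart under KCl. The spread within each class was much wider than this gap: under KCl the upper-layer genes ran from 0.19 to 1.39 and the deep-layer genes from -0.62 to 1.92. Deep-layer genes changed in both directions in each treatment, as all genes tested did. Under KCl no upper-layer gene fell, where 36.0% of all genes did. By the size of change, the median was 0.11 for upper-layer and 0.40 for deep-layer genes under bicuculline, and 0.31 and 0.43 under KCl, against 0.15 and 0.32 for all genes. No test of the classes against each other was made.

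**Figure D4:**
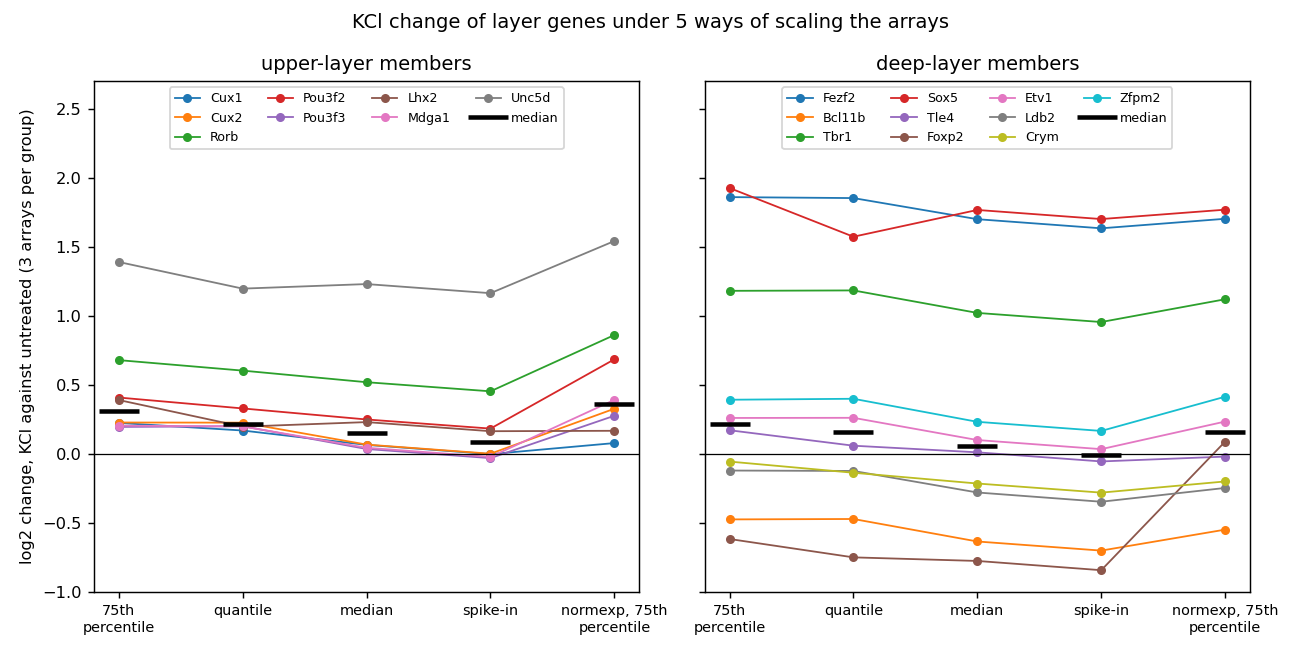
KCl change of each upper-layer (left) and deep-layer (right) member, in log2 units from 3 arrays per group, under 5 ways of scaling the arrays; black bars are the median of the class. Unc5d, Rorb, Fezf2, Sox5, Tbr1 and Bcl11b keep their side of 0 throughout, while the upper-layer median moves from 0.31 with the 75th percentile to 0.08 with spike-in scaling.

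The arrays lay on 3 slides, with control 1 and 2 and bicuculline 1 and 2 on the first, control 3, bicuculline 3 and KCl 1 and 2 on the next, and KCl 3 alone on the last. Within slides, all 22 bicuculline calls and all 30 KCl calls among the members had the sign of the full comparison, values that also enter it. With slide as a block, where KCl 3 contributes nothing, 22 of 22 bicuculline calls and 25 of 30 KCl calls passed; Cdh13, Mdga1, Neurod6, Nfia and Tle4 did not. For KCl against bicuculline 18 of 23 passed; Cdh13, Cux2, Rorb, Sox5 and Tle4 did not. The members called in each of the 10 other settings and without each array in turn were Fezf2, Tbr1, Bcl11b and Emx1 under bicuculline and Fezf2, Tbr1, Sox5, Bcl11b, Unc5d, Rorb and Foxp1 under KCl. Of these, Sox5 entered the main test through the treated arrays alone, so its adjusted p carries little weight. The setting that ended most calls was normexp correction of the raw signal, which kept 4 of 22 and 12 of 30; the median SD between arrays of a group was 0.175 there, against 0.064.

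A further 16 genes of layers and projection neurons that are not members were read for context. Under bicuculline 3 rose and 4 fell, where 17.4% and 27.0% of all genes did, and under KCl 10 rose and 0 fell by limma, where 35.8% and 36.0% did, with 0 lower at an unadjusted p under 0.05 as well. Nr4a2, an orphan nuclear receptor of subplate and claustrum neurons that is also an activity-induced gene, was the one that changed by at least 1. It lay between 0.78 and 0.81 in controls, 3.07 and 3.16 with bicuculline and 4.26 and 4.27 with KCl. Its rise of 2.31 ± 0.03 and 3.46 ± 0.03 exceeded that of any member.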

How the data were processed

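The authors deposited scanner files with processed signal intensity. Agilent Feature Extraction made them, with version 10.7.3.1 named in the file headers and 10.5.1.1 in the submitters' processing notes. Background had been subtracted within each array, per the file headers, and arrays had not been scaled to each other. The median deposited signal of an array ran from 168.1 to 299.2. From it, log2 signal minus the array's 75th percentile over 43379 non-control spots was computed. Outlier spots (39 values of the genes tested) were dropped, and spots of a probe were averaged. Probes were named through RefSeq identifiers in a GRCm38.p6 table (26888 of 41174 matched), and promoters come from RefSeq on the same build. Probes well above background on all arrays of 1 or more groups were kept, and the brightest kept probe stood for its gene. Groups came from the labels. All 9 arrays entered 1 limma fit (limma 3.58.1, R 4.3.3) with group as the only term, two-sided, Benjamini-Hochberg over 14063 genes; every adjusted p is limma's, and precision is limited by the number of arrays. A bound ("at least") sets the brighter group's mean against, on each dim array, its own value or the lowest signal well above background, whichever is higher. The raw median signal and local background, also deposited as intensity, served for normexp (offset 50). Members and lists were chosen with earlier results of these data known. All members are named; values per array are given for those called with a change of at least 0.5 against control, or with probes of opposite sign, and for Pou3f2. Replicate numbers were not used to pair the arrays in the main fit. Alternatives were other scalings, normexp, no dim filter, all probes, another prior, blocks for replicate or slide, 2-group fits and leaving out each array.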

Additional observations from a re-analysis of the deposited data

Results flagged for a closer look

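Pou3f2 and Pou3f1 were the members called in opposite directions by the treatments, lower with bicuculline and higher with KCl than control. Because both were picked for opposite calls, their difference between KCl and bicuculline had to be large, and its p-value adds no support. That difference was 0.72 on the log2 scale for Pou3f2 (limma adjusted p = 7.7e-05) and 0.83 for Pou3f1 (3.2e-05), higher on 3 of 3 KCl arrays for both. Over the 10 other settings this difference ran from 0.49 to 0.98 for Pou3f2 and from 0.60 to 0.96 for Pou3f1, and it passed in each. The opposite directions against control were less stable. Both genes lost the bicuculline call with spike-in scaling and with normexp. The KCl call was lost for Pou3f2 with spike-in scaling and for Pou3f1 with normexp.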

How the results depend on the processing

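Of the members' calls, 4 of 22 under bicuculline, 7 of 30 under KCl and 6 of 23 for KCl against bicuculline passed in each of the 10 other settings and without each array; with quantile, median and spike-in scaling together 12, 14 and 11 did. In the main analysis 12 members were higher and 10 lower under bicuculline, 24 and 6 under KCl, and 22 and 1 for KCl against bicuculline. Under bicuculline, spike-in scaling gave 7 members higher and 5 lower and normexp gave 2 and 2. Of all 14063 genes tested, these settings called 1247 higher and 1256 lower, and 483 and 340. The main analysis called 2444 and 3798. Under KCl, 13 members were higher with median scaling, 8 with spike-in scaling and 10 with normexp, which left 2 lower. Of all genes tested, 2942, 2201 and 1827 were higher in these settings, against 5037 in the main analysis. Normexp left 2308 of all genes lower, against 5063. For KCl against bicuculline, 12 members were higher with median scaling, 10 with spike-in scaling and 8 with normexp. Of all genes tested, 2501, 1283 and 1099 were higher in these settings, against 5076 in the main analysis. The count of members lower with KCl than bicuculline was 4 with quantile, 3 with median and 5 with spike-in scaling. It was 3 with the mean of all kept probes, and 0 with normexp, without the dim filter and with the replicate block. Of all genes tested, 4882, 4866 and 5220 were lower with quantile, median and spike-in scaling and 1334 with normexp, against 4047 in the main analysis. Leaving out each array in turn gave 9 to 12 members higher and 10 to 11 lower under bicuculline, 21 to 24 and 5 to 8 under KCl, and 21 to 23 and 0 to 1 for KCl against bicuculline.

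The upper-layer median minus the deep-layer median was 0.05 under bicuculline, 0.09 under KCl and 0.04 for KCl against bicuculline, and varied with an SD of 0.048 between arrays. It moved to 0.11 under bicuculline and 0.20 under KCl with normexp, and with the mean of all kept probes to 0.16 under KCl and 0.15 for KCl against bicuculline. Without each array in turn it ran from 0.01 to 0.07, 0.05 to 0.12 and 0.01 to 0.07.

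Among the members called in the main analysis, signs turned, without passing, in 22 cases. Under KCl these were Cdh13 with quantile normalization (-0.026), Emx2 with median scaling (-0.022), and with spike-in scaling Cux1 (-0.003), Cux2 (0), Emx2 (-0.088), Lmo4 (-0.004), Mdga1 (-0.023), Neurod6 (-0.042), Nfib (-0.023), Pou3f3 (-0.032) and Tle4 (-0.056). For KCl against bicuculline with spike-in scaling they were Bcl11b (-0.027), Crym (-0.040), Cux2 (-0.088), Nr2f2 (-0.071) and Pou3f3 (-0.037). With normexp they were Foxp2 (0.088), Lmo4 (-0.026), Neurod1 (0.168), Nfib (-0.006) and Tle4 (-0.021) under KCl and Rorb (0.109) for KCl against bicuculline. The spike-in and median settings shift all genes, and the median SD between arrays was 0.120 and 0.089 there; other causes were not tested.

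The replicate block kept 21 of 22, 29 of 30 and 20 of 23 calls, and the block moved the count lower with KCl than bicuculline from 1 to 0. Deviations of arrays with the same number correlated between -0.57 and 0.74, and arrays of a slide correlated positively. On the first slide, control and bicuculline arrays of the same number gave 0.401 and 0.259, and those of different number 0.335 and 0.163. Many arrays of the same number lie on different slides, so this check cannot decide whether numbers pair the arrays. Limits are the small number of arrays, dim signal for Sox5, Ntng2 and Eomes, and probes that disagree for Rorb, Pou3f3 and Bhlhe22.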

Other observations

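Eomes, the T-box factor of intermediate progenitors, was not tested. Its probe read -6.21, -7.78 and -6.95 in controls, -7.04, -6.49 and -6.34 with bicuculline and -6.41, -4.56 and -4.98 with KCl. It was well above background on 0 control, 1 bicuculline and 2 KCl arrays, and the groups overlapped.

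The vesicular glutamate transporters, which load glutamate into synaptic vesicles of excitatory neurons, were picked after their values were seen. Slc17a6 read 0.25, 0.27 and 0.21 in controls, 1.03, 1.01 and 1.03 with bicuculline and 0.96, 0.94 and 0.92 with KCl, a rise of 0.78 ± 0.03 (adjusted p = 6.8e-07) and 0.70 ± 0.03 (3.1e-07). Slc17a7 changed by -0.16 ± 0.04 (adjusted p = 0.011) and 0.15 ± 0.04 (0.011). The difference between the transporters was not tested.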
